A study of Mus musculus with 2 samples.

Results

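Transcripts of the kinases that signal DNA damage, and of the proteins that switch them on, were examined in AIMP3-depleted mouse embryonic stem cells (mESCs). The 8 genes were chosen by name, with earlier results of these data known. They are the kinases *Atm*, *Atr*, *Prkdc*, *Chek1* and *Chek2* and the activators *Atrip*, *Topbp1* and *Clspn*. All 8 were measured, among 24022 tested genes, of which 14972 had a RefSeq symbol. The cells carried *AIMP3* alleles flanked by loxP sites, with Cre fused to an oestrogen receptor domain (genotype *AIMP3f/f;cre-ERT2*), and came from clones derived from blastocysts of mice of that genotype. In 2 replicates, 2 μM tamoxifen (4-OHT) was given for 4 days to delete the gene. Controls were given 100% ethanol without tamoxifen, and both were in medium with LIF. Control cells carried the same alleles and the same Cre but no tamoxifen, so an effect of 4-OHT or of active Cre cannot be told apart from that of AIMP3 loss. Each replicate has 1 Agilent 2-colour array, on which its RNA (Cy5) competed with 1 pool of control RNA (Cy3). The pool counts as 1 control sample, so the test of a ratio against 0 holds no variation among control cultures.

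A log2 ratio below 0 means a weaker signal in AIMP3-depleted cells than in the pool. The dyes were not swapped, so a gene-specific difference between the dyes cannot be told apart from depletion. The labels do not say whether the replicates were separate cultures, and p-values measure the spread between these samples, which may be technical. *Eef1e1*, which encodes AIMP3, had log2 ratios of -0.90 and -0.90 (mean -0.90 ± 0.0067, SD, n = 2; adjusted p = 5.08e-05). On the arrays the median signal over background was between 2.68 and 3.31, and between 59.3% and 60.6% of spots in a channel were well above background. In RNA from a mixed culture, fewer cells of a type and less RNA per cell cannot be told apart.

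Cells meet broken or incompletely replicated DNA with large kinases of the PIK family. ATM acts mainly at double-strand breaks, ATR with its partner ATRIP at stretches of single-stranded DNA, and DNA-PKcs, the product of *Prkdc*, at DNA ends that are joined directly. TOPBP1 switches ATR on, Claspin, the product of *Clspn*, brings CHK1 to ATR, and the effector kinases CHK1 and CHK2 carry the signal to the cell cycle machinery. Stem cells of the mouse embryo divide fast, spend little time in G1 and are known to rely on these kinases during replication. The study asked whether AIMP3 loss damages the genome of these cells, and most of the regulation of these kinases is by phosphorylation, which an array of transcripts does not measure.

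Promoters of 7 of the 8 genes were in a table of RefSeq promoters on build GRCm38.p6, and that of *Prkdc* was not. The E2F words TTTCCCGC, TTTCGCGC, TTTGCCGC and TTTGGCGC, which are known from genes of DNA replication, were searched on both strands. They occurred in 3 of these 7 promoters and in 744 of 32851 promoters of the same length (2.26%). The 3 promoters are shown because they hold such a word. Of their genes, *Chek2* and *Clspn* had lower signal and *Topbp1* did not pass the test. The promoters of *Atm*, *Atr* and *Chek1*, which also had lower signal, and of *Atrip*, which did not pass, held none. Each line runs 5′ to 3′ on the strand of the gene, from 250 bases before the start of the transcript to 30 bases from it, and capitals mark the E2F words and CCAAT boxes, here all on the opposite strand. The lines lie at chr5:110839733-110840012 for *Chek2*, chr9:103305077-103305356 for *Topbp1* and chr4:126556730-126557009 for *Clspn*, all on the plus strand.
Chek2: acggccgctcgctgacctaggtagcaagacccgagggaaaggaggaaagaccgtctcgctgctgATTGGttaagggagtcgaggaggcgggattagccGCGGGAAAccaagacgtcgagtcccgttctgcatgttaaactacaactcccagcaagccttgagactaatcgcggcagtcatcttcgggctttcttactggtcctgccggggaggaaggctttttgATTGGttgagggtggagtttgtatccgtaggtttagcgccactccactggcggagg
Topbp1: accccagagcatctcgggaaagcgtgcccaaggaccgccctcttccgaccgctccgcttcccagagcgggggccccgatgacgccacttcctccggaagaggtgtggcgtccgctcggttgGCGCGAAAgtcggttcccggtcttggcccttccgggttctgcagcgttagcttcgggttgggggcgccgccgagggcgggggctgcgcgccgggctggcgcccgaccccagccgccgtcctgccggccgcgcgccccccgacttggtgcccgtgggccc
Clspn: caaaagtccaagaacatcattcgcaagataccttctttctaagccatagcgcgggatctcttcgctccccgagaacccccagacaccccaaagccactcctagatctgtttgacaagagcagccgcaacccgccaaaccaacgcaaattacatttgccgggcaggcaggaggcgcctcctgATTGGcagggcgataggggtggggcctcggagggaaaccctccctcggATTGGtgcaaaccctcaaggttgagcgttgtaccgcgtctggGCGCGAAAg

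The E2F word starts at position -152 in *Chek2*, at -129 in *Topbp1* and at 21 in *Clspn*, counted from the start of the transcript. CCAAT boxes occurred in 4 of the 7 promoters (*Atm*, *Chek2*, *Atrip* and *Clspn*) and in 37.4% of all promoters. The GC box GGGCGG occurred in 4 of the 7 (*Atm*, *Atr*, *Atrip* and *Topbp1*) and in 35.7% of all. The word TTTGAA, the CHR element of many mitotic genes, was in 0 of the 7 and in 17.9% of all. All 7 promoters were rich in CpG, with observed over expected CpG of 0.821 to 0.958, where the median promoter had 0.384. These matches describe letters in the window and not binding sites.

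Of the 8 genes, 6 had a lower signal in AIMP3-depleted mESCs, with mean ratios short of 1.5-fold, although the 95% interval of *Chek2* includes that fold. All 8 mean log2 ratios were below 0, with a median of -0.18, against 0.015 over all tested genes. By limma the ratio fell in 6 genes at an adjusted p under 0.05 (*Atm*, *Atr*, *Prkdc*, *Chek1*, *Chek2* and *Clspn*) and rose in 0, whereas *Atrip* and *Topbp1* did not pass the test. Over all tested genes, 23.7% were lower and 30.6% were higher at the same threshold. After loess none of the 8 genes (0) had a mean ratio past 1.5-fold, the fold change of the study, in either direction, although 6.32% of all genes did so and 0.791% were lower past it. The direction depends on how the dyes are balanced. When each array was centred on its median in place of loess, the median of all genes moved to 0.18, genes with an adjusted p under 0.05 split into 2106 lower and 13082 higher in place of 5692 and 7340, and the median of the 8 genes became -0.019. In that fit limma shared 1 variance between all genes (an infinite prior degree of freedom), so its p-values hold no spread of a gene's own. *Atr*, *Atrip*, *Topbp1* and *Clspn* were then above 0. Relative to the median of all genes, the 8 genes were at -0.20 after loess and at -0.20 after centring, and 7 of the 8 genes stayed below that median, all but *Topbp1*.

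**Figure D1:**
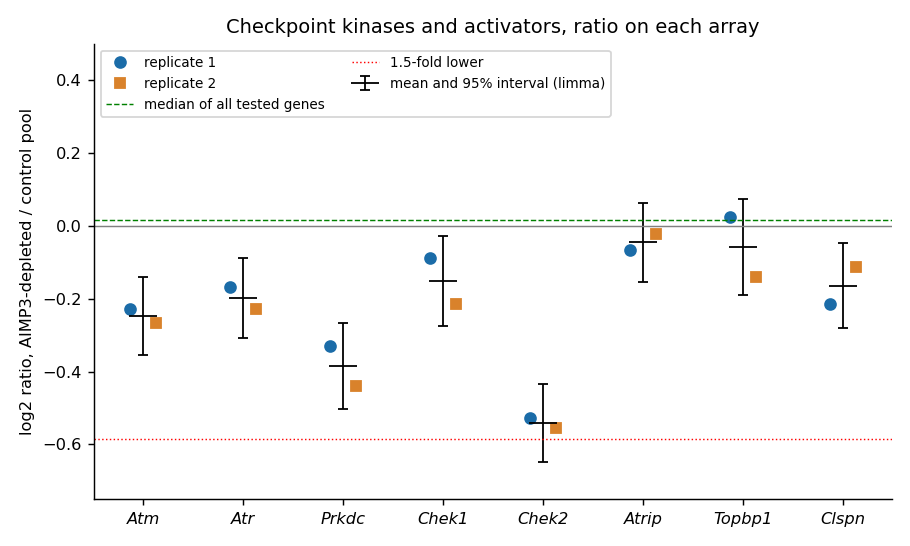
Log2 ratio of AIMP3-depleted cells over the control pool for each checkpoint gene. Circles and squares are the arrays of replicate 1 and replicate 2, black bars are the limma mean with its 95% interval, the dashed green line is the median of all tested genes and the dotted red line is 1.5-fold lower. *Chek2* is lowest at a mean of -0.54 and *Atrip* is nearest 0 at -0.045.

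Ordered by mean ratio, *Chek2* was lowest, followed by *Prkdc*, *Atm*, *Atr*, *Clspn*, *Chek1*, *Topbp1* and *Atrip*. The arrays of *Chek2* did not overlap those of *Prkdc*, and those of *Prkdc* did not overlap those of *Atm*. *Atm* and *Atr* were apart only by -0.2275 (*Atm*, replicate 1) against -0.2268 (*Atr*, replicate 2). From *Atr* on, the arrays of neighbours in this order overlapped. The order from *Atm* on is thus not resolved, and it differed with the processing. With signals as processed by the scanner, *Clspn* (-0.33) was below *Atm* (-0.30).

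Of the PIK kinases, *Prkdc* differed most. In the control channel its log2 level was 10.52 and 10.48 on the arrays of replicates 1 and 2, and in the depleted channel it was 10.19 and 10.04. Both depleted values were below both control values. The log2 ratios were -0.33 and -0.44 (mean -0.38 ± 0.079, SD, n = 2; 95% interval -0.50 to -0.27; adjusted p = 0.00111 by limma), so that 76.6% of the control signal was left, and the gene was among the lowest 4.18% of all tested genes. The probe of *Prkdc* was spotted 10 times on each array, which gives its ratio a second measure of error. The spots ranged from -0.40 to -0.23 for replicate 1 (SD 0.0535) and from -0.54 to -0.35 for replicate 2 (SD 0.0594). All 10 spots were below 0 on both arrays. *Prkdc* kept its direction in all 9 ways of processing, with a largest adjusted p of 0.0215. Its ratio ran from -0.44 with signals as processed by the scanner to -0.19 with median centring. Other filters, averaging of probes and the trended prior cannot alter the ratio of a gene with 1 probe, so they do not check its direction.

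*Atm*, the kinase of double-strand breaks, was measured by 2 probes that gave almost the same value. The brighter one had log2 levels of 10.69 and 10.70 in the control channel and of 10.46 and 10.43 in the depleted channel, with no overlap. Its ratios were -0.23 and -0.27 (mean -0.25 ± 0.027, SD, n = 2; 95% interval -0.35 to -0.14; adjusted p = 0.00436), or 84.3% of the control signal. The other probe, spotted 10 times, gave -0.25 and -0.24 (mean -0.24), and its spots ranged from -0.33 to -0.15 and from -0.41 to -0.15. All of these spots were below 0. The spread over spots (SD 0.0691 and 0.0799) was larger than the difference between the probes. With median centring the ratio of *Atm* was -0.045 and no longer passed the test (adjusted p = 0.592).

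**Figure D2:**
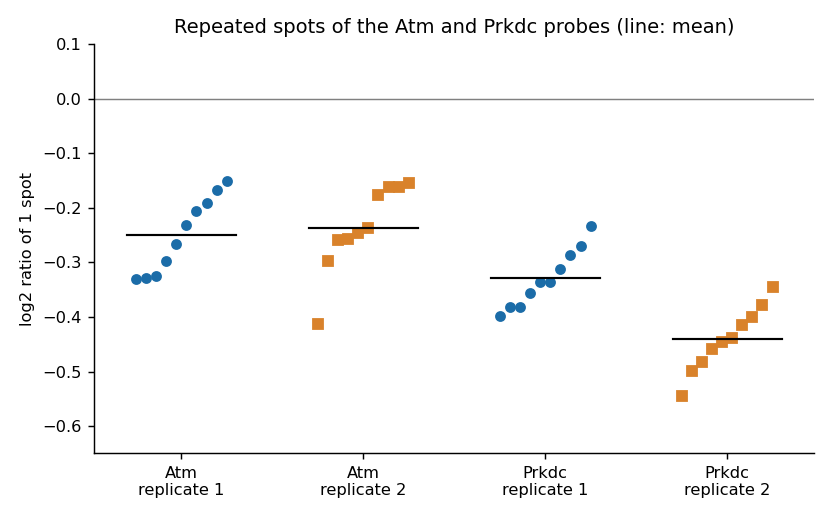
Log2 ratio of each single spot of the *Atm* and *Prkdc* probes that were printed 10 times on an array. Each point is 1 spot, sorted by value within an array, and the line is the mean of the 10 spots. All spots lie below 0, and the *Prkdc* spots of replicate 2 (mean -0.44) lie lower than those of replicate 1 (mean -0.33).

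*Atr*, the kinase of stalled replication, had log2 levels of 12.75 and 12.77 in the control channel and of 12.58 and 12.55 in the depleted channel. The depleted values were below both control values, by less than for *Prkdc*. The ratios were -0.17 and -0.23 (mean -0.20 ± 0.041, SD, n = 2; 95% interval -0.31 to -0.088; adjusted p = 0.0113), or 87.2% of the control signal. With median centring the ratio of *Atr* was 0.039 (adjusted p = 0.639).

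The effector kinase *Chek2* had the lowest ratio of the 8 genes. Its log2 level was 10.33 and 10.20 in the control channel and 9.80 and 9.64 in the depleted channel. The pool's own level was -0.13 apart between the arrays (replicate 2 minus replicate 1), and both depleted values lay below both pool values. The ratios were -0.53 and -0.56 (mean -0.54 ± 0.020, SD, n = 2; 95% interval -0.65 to -0.44; adjusted p = 0.000215), so that 68.7% of the control signal was left. The change was 1.46-fold and the gene was among the lowest 1.17% of all tested genes. The 95% interval of *Chek2* includes 1.5-fold (0.58 on the log2 scale), so it cannot be placed on either side of that threshold. It was past 1.5-fold with signals as processed by the scanner (-0.64) and in the value table that was deposited (-0.60), and short of it in the other 7 ways of processing, to -0.35 with median centring. The gene is represented by 1 probe with 1 spot on each array, so other filters, averaging of probes and the trended prior could not alter its ratio.

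*Chek1*, the effector kinase of *Atr*, was measured by 1 dim spot on each array. Its log2 level was 7.21 and 7.32 in the control channel and 7.13 and 7.11 in the depleted channel. The control and depleted values do not overlap, but the pool itself was 0.11 higher on the array of replicate 2. The spot stood 67.0 and 80.0 intensity units above a local background of 40.0 and 39.0 in Cy3, and 90.0 and 74.0 units above 57.0 and 54.0 in Cy5. The ratios were -0.088 and -0.21 (mean -0.15 ± 0.090, SD, n = 2; 95% interval -0.27 to -0.029; adjusted p = 0.0437), or 90.0% of the control signal. *Chek1* passed the test in 4 of 9 ways of processing, with an adjusted p of 0.542 (log2 ratio -0.044) when no background was subtracted and of 0.191 (log2 ratio -0.25) with signals as processed by the scanner. Whether it passes thus depends on the processing.

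Of the activators, *Clspn* passed the test and *Topbp1* and *Atrip* did not. *Clspn*, which encodes the adaptor between ATR and CHK1, had log2 levels of 9.31 and 9.32 in the control channel and of 9.09 and 9.21 in the depleted channel. The ratios were -0.21 and -0.11 (mean -0.16 ± 0.071, SD, n = 2; 95% interval -0.28 to -0.047; adjusted p = 0.0283), or 89.3% of the control signal. Both depleted values of *Clspn* were below both control values, but the size depended on the processing. The ratio of *Clspn* was -0.33 with signals as processed by the scanner (adjusted p = 0.0222), -0.29 in the value table (adjusted p = 0.026) and 0.0061 with median centring (adjusted p = 0.944).

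*Topbp1*, which encodes the activator of ATR, had log2 levels of 12.92 and 12.93 in the control channel and of 12.94 and 12.79 in the depleted channel. These values overlap, and the arrays disagreed in sign, with ratios of 0.024 and -0.14 (mean -0.058 ± 0.12, SD, n = 2; 95% interval -0.19 to 0.074; adjusted p = 0.401). *Atrip*, which encodes the partner of ATR, had log2 levels of 11.08 and 11.02 in the control channel and of 11.02 and 10.99 in the depleted channel, which touch. Its ratios were -0.067 and -0.023 (mean -0.045 ± 0.032, SD, n = 2; 95% interval -0.15 to 0.063; adjusted p = 0.425). Neither gene passed the test after loess, and the lower ends of the intervals were -0.15 and -0.19. With median centring both passed it as higher, with *Atrip* at 0.17 (adjusted p = 0.0309) and *Topbp1* at 0.19 (adjusted p = 0.0148), where the median of all genes was 0.18. With signals as processed by the scanner they were at -0.094 and -0.14 and did not pass (adjusted p = 0.126 and 0.133).

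Taking every spot of the 9 probes of these genes, 26 of 27 spots were below 0 for replicate 1 and 27 of 27 for replicate 2. The exception was the *Topbp1* spot. No spot carried an outlier flag (0), and all 9 probes stood well above background in all 4 channels. Spots of 1 probe share a sequence and an RNA sample, so they are no replicates of the treatment.

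**Figure D3:**
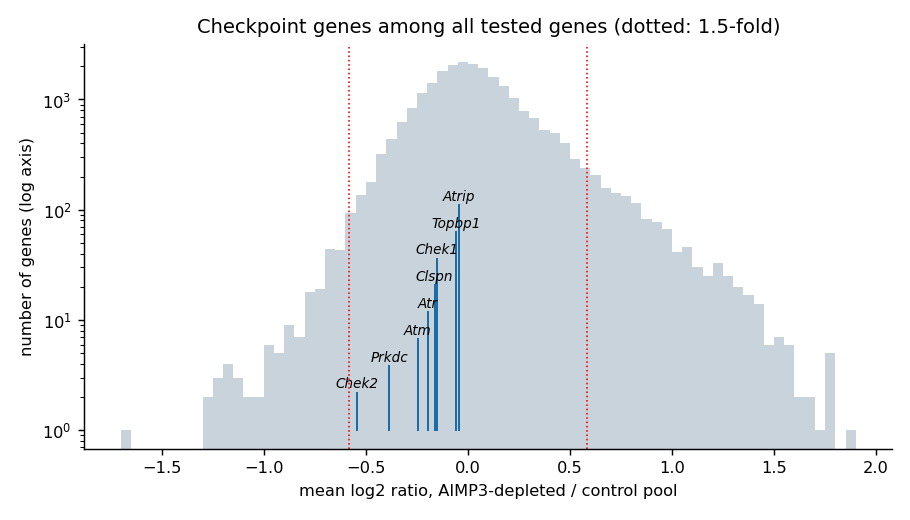
Mean log2 ratio of all 24022 tested genes (grey histogram, log axis for the number of genes), with the 8 checkpoint genes as blue lines whose heights separate the names and carry no value. Dotted lines are 1.5-fold in either direction. The 8 genes lie between -0.54 (*Chek2*) and -0.045 (*Atrip*), inside the dotted lines.

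The proteins around these kinases were described by 6 lists with 59 genes, of which 58 were tested. *Rhno1* had no named probe. Over the 58 genes, 25 fell and 9 rose at an adjusted p under 0.05 and 24 did not pass, with a median log2 ratio of -0.12. Over all tested genes 23.7% were lower and 30.6% were higher at that threshold, and each list below is to be read against these shares. The counts turned with the dye balance: with median centring 6 of the 58 genes were lower and 24 were higher, against 8.77% and 54.5% of all genes, and the median was 0.093, or -0.087 relative to all genes. Past 1.5-fold, 2 were lower after loess (*Mdc1* and *Usp28*, against 0.791% of all genes) and 0 were higher.

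At single-stranded DNA, where ATR acts, the list of RPA, checkpoint clamp and fork protection genes fell in 8 of 12 and rose in 0, with a median of -0.22. RPA coats single-stranded DNA, and the clamp is loaded beside it. The clamp subunit *Hus1* was lowest with ratios of -0.33 and -0.53 (mean -0.43; adjusted p = 0.00148), whereas the clamp loader *Rad17* was highest at 0.017 and 0.087 (mean 0.052; adjusted p = 0.372). *Tipin*, of the fork protection complex, was at -0.34, *Rpa1* at -0.28 and *Etaa1*, a further activator of ATR, at -0.25, all 3 past the test. With median centring 1 gene of this list was lower and 2 were higher, and the median was 0.030, or -0.15 relative to all genes.

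At double-strand breaks, where ATM acts, the list of the MRN complex and break-site mediators fell in 6 of 11 genes and rose in 0, with a median of -0.27. *Mdc1*, the scaffold that binds phosphorylated H2AX, was lowest with ratios of -0.69 and -0.55 (mean -0.62; adjusted p = 0.000243). Its mean was past 1.5-fold by less than its SE of 0.052. *Mdc1* was past that fold in 8 of 9 ways of processing, but at -0.40 with median centring. As it has 1 probe, other filters, averaging of probes and the trended prior could not alter its ratio. *H2afx*, which encodes that histone, was at -0.37, *Rad50*, of the MRN complex, at -0.34 and *Trp53bp1*, a mediator at breaks, at -0.30. The ubiquitin ligase gene *Rnf168* was highest, at 0.11 (unadjusted p = 0.0436, adjusted p = 0.0737 by limma). With median centring 2 genes were lower and 4 were higher, and the list had a median of -0.036, or -0.22 relative to all genes. With the mean of all probes of a gene the list median was -0.17, with 6 lower and 0 higher.

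The partners of DNA-PKcs in end joining divided. The Ku subunits, which recruit DNA-PKcs to DNA ends, both fell: *Xrcc6* had ratios of -0.40 and -0.47 (mean -0.43; adjusted p = 0.000555) and *Xrcc5* was at -0.32 (adjusted p = 0.00158). *Nhej1* was at 0.17 (adjusted p = 0.0256), and *Paxx* was highest at 0.27, but a dimmer probe of *Paxx* gave -0.072. The other 3 of the 7 genes did not pass the test, and the list had a median of 0.022. With median centring *Xrcc6* was at -0.16, and 1 gene was lower and 4 were higher. The list median was then 0.22, or 0.038 relative to all genes. The list median was -0.0086 with signals as processed by the scanner and -0.0073 with the mean of all probes.

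PIK kinases of other pathways, with the chaperones that assemble the whole family, fell in 4 of 10 genes and rose in 2, with a median of -0.13. All 4 that fell were assembly factors: *Ruvbl1*, with ratios of -0.32 and -0.34 (mean -0.33; adjusted p = 0.00132), *Telo2* at -0.30, *Rpap3* at -0.29 and *Ruvbl2* at -0.20. *Trrap*, a family member without kinase activity, was highest at 0.26 (adjusted p = 0.00405), and *Pih1d1* was at 0.20. With median centring *Ruvbl1* was at 0.023 (adjusted p = 0.790), and 0 genes of the list were lower and 3 were higher. The list median was then 0.12, or -0.061 relative to all genes.

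Downstream, the cell cycle genes through which the effector kinases act (CDC25 phosphatases, kinases such as WEE1 and PLK1, and the cyclins and CDKs they control) fell in 4 of 11 genes and rose in 0, with a median of -0.12. The 4 were *Plk1* at -0.34 (ratios -0.36 and -0.33; adjusted p = 0.00115), *Cdc25c* at -0.32, *Ccnb1* at -0.30 and *Ccnb2* at -0.24, which act at entry into mitosis. *Cdk1*, the kinase of mitotic entry, was highest, at 0.051 (adjusted p = 0.373). With median centring *Plk1* was at -0.012 (adjusted p = 0.893), 1 gene of the list was lower and 5 were higher, and the list median was 0.13, or -0.054 relative to all genes.

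Genes for turnover and dephosphorylation of checkpoint proteins were the pathway list with the highest median, at 0.28, where 5 of 7 rose and 1 fell. With median centring 6 were higher and 1 was lower, and the median was 0.67, or 0.49 relative to all genes in place of 0.26. *Ppm1d*, the phosphatase WIP1 that switches ATM and its targets off, was highest, with ratios of 0.51 and 0.59 (mean 0.55; adjusted p = 0.000241), and it passed 1.5-fold in 3 of 9 ways of processing. *Btrc*, a ligase subunit that directs Claspin to the proteasome, was at 0.53 (ratios 0.46 and 0.60; adjusted p = 0.000427), but its dimmer probe gave 0.10. *Fbxo6*, which directs CHK1 to the proteasome, was at 0.46 (adjusted p = 0.00039). *Usp28*, the deubiquitinase that stabilises Claspin and other checkpoint proteins, was lowest, with ratios of -0.87 and -0.94 (mean -0.90; adjusted p = 5.38e-05). It was past 1.5-fold in all 9 ways of processing, between -0.93 and -0.65. *Usp28* rests on 1 probe, so other filters, averaging of probes and the trended prior could not alter its ratio. *Usp7* was at 0.12 (adjusted p = 0.0558), and its other probe gave -0.21.

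**Figure D4:**
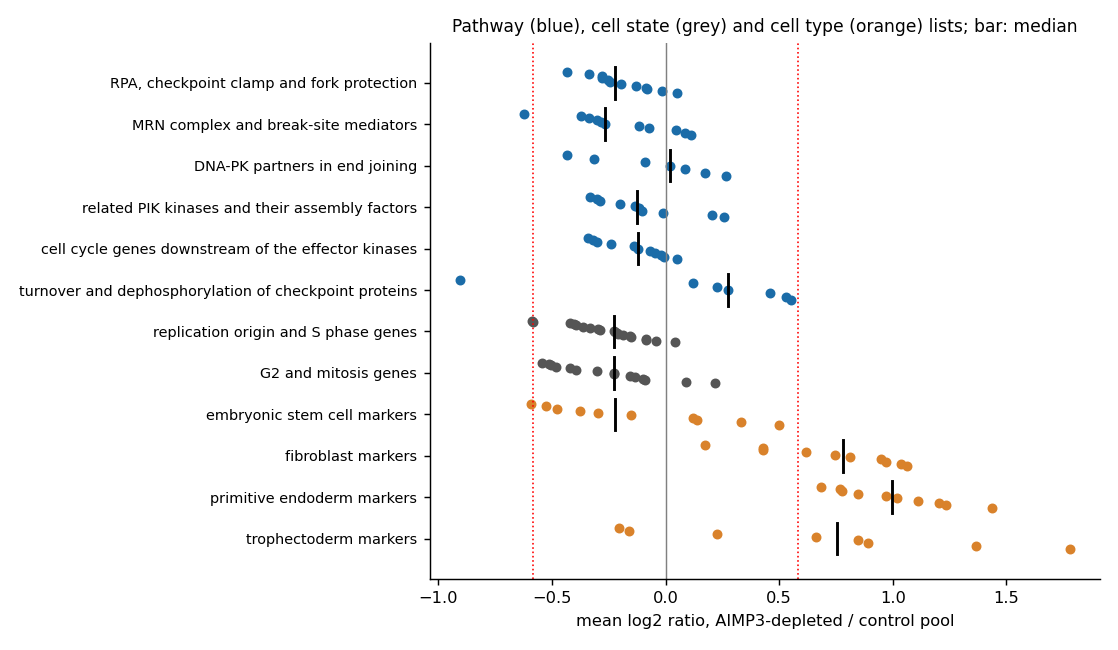
Mean log2 ratio of each tested gene of the pathway lists (blue), of the cell state lists (grey) and of the cell type lists (orange). Black bars are list medians and dotted lines are 1.5-fold. Most checkpoint pathway genes lie between 0 and 1.5-fold lower, *Usp28* (-0.90) stands apart in the turnover list, and most of the fibroblast, primitive endoderm and trophectoderm markers lie above 0.

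Genes of dividing cells and of other cell types moved beside the checkpoint genes. Of 20 replication origin and S phase genes, 16 fell and 0 rose (23.7% and 30.6% of all genes), with a median of -0.22. *Gins2* was past 1.5-fold (0.585 on the log2 scale) at -0.588, by less than its SE of 0.044. Of 15 G2 and mitosis genes, 10 fell and 1 rose, with a median of -0.23. With median centring 3 S phase genes were lower and 3 higher, 5 G2 and mitosis genes were lower and 5 higher, and the medians were -0.0028 and 0.0049, or -0.18 and -0.18 relative to all genes. Their summed signal, which adds intensities after normalisation, was between 356772 and 358104 in the control channel and between 278146 and 284405 in the depleted channel for the S phase list. For the G2 and mitosis list it was between 236068 and 237901 in the control channel and between 201689 and 207681 in the depleted channel. The part of replication and division in the checkpoint genes' ratios was not tested.

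Over all 24022 tested genes, 1327 were higher past 1.5-fold, and the marker lists are to be read against this. Of 10 fibroblast markers all 10 rose and 7 passed 1.5-fold (*Col1a1*, *Col1a2*, *Pdgfra*, *Col3a1*, *Col6a1*, *Prrx1* and *Pdgfrb*), led by *Col1a1* at 1.06. The summed signal of the fibroblast markers was 93130 to 93946 in the control channel and 133408 to 137294 in the depleted channel. The labels say that cells were generally grown on feeder layers of mouse embryonic fibroblasts, whereas the methods say that medium conditioned by such fibroblasts was used during drug treatment. All 10 primitive endoderm markers rose past 1.5-fold (*Sox17*, *Col4a1*, *Gata6*, *Sox7*, *Lama1*, *Pdgfra*, *Foxq1*, *Dab2*, *Gata4* and *Lamb1*), led by *Sox17* at 1.44, with a summed signal of 89611 to 92456 in the control and of 168123 to 169157 in the depleted channel. *Pdgfra* is in both lists. Of 9 trophectoderm markers 8 were tested, 6 rose and 2 fell (6 and 0 with median centring), and 5 passed 1.5-fold (*Krt18*, *Krt8*, *Hand1*, *Gata3* and *Cdx2*), led by *Krt18* at 1.78. The summed signal was 67522 to 69474 in the control and 188730 to 200225 in the depleted channel. *Elf5* was not tested, as it was not well above background.

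All 10 embryonic stem cell markers were well above background in the control channel, as were all tested markers of the other lists. Of these 10, 6 fell and 3 rose, with a median of -0.22. *Tdgf1* was past 1.5-fold at -0.59, by less than its SE of 0.048. The summed signal of the 10 markers moved the other way. It was between 267055 and 269200 in the control channel and between 295437 and 302817 in the depleted channel. The 3 markers that rose were *Dppa5a*, *Tfcp2l1* and *Klf4*, and the part of each marker in the sum was not tested. With median centring 4 fell and 4 rose, and the list median was 0.070, or -0.11 relative to all genes. The part of these cell types in the ratios of the checkpoint genes was not tested.

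**Figure D5:**
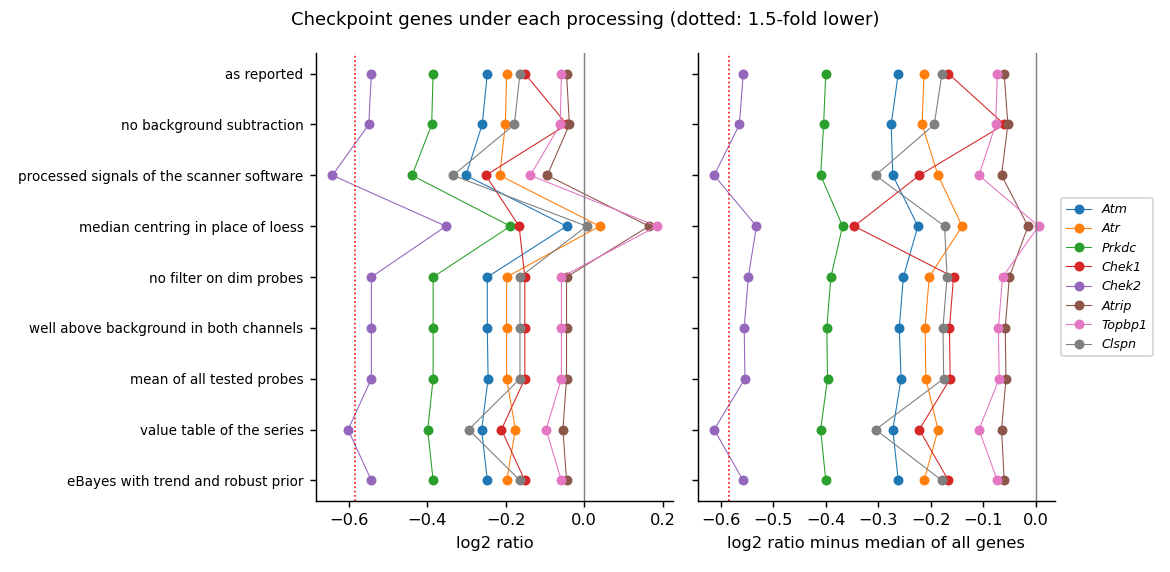
Mean log2 ratio of each checkpoint gene under 9 ways of processing, as it is (left) and minus the median of all genes in that processing (right); the dotted line is 1.5-fold lower. On the left median centring moves most of the genes upwards by about the shift of all genes (to 0.18), on the right *Chek2* stays lowest, between -0.61 and -0.53.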

How the data were processed

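Gene expression was measured on 2 Agilent 2-colour mouse arrays of 1 slide, from total RNA. For each array the authors deposited Feature Extraction output (in another version than the methods name), in which the intensity of spots and local backgrounds is given per channel and is not normalized. The authors also deposited processed signals, for which the software corrected background and dyes, and the software's log10 ratio (Cy5 over Cy3). On the log2 scale that ratio differed from the ratio of the processed signals by up to 0.26 at single spots. The value table, deposited as log2 ratios, went through GeneSpring GX, which ran in the direction of the scanner's log ratio (r = 0.998 and 0.985 across probes, which are not independent replicates) with an offset of 0.0404 and 0.0395. Its medians were 0.0909 and 0.111. How GeneSpring centred it is not given in the sources used here. The methods word the ratio as control over test, whereas the direction here follows the dyes in the labels, with AIMP3-depleted RNA in Cy5.

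Median signals were background corrected with limma's normexp (offset 50) and normalized by loess within each array, with control spots at weight 0. Spots with an outlier flag (215 and 227 of 59305 that are not controls) were dropped, and the rest averaged per probe. Tested were 33012 of 55681 probes, those that both arrays placed well above background in 1 or more channels, and the brightest stands for a gene. Features were named by accession through a RefSeq table on GRCm38.p6, which matched 31014 of 59305 spots. Probe coordinates were not used, as the array was designed on another build. Promoters come from RefSeq on the same assembly. Mean ratios were tested against 0 with lmFit and eBayes, two-sided, with 1 residual and 5.25 prior degrees of freedom, and adjusted by Benjamini-Hochberg over all 24022 genes. A gene passed the test, and is said to have risen or fallen, at an adjusted p under 0.05, and changed genes had, at over 1.5-fold, an unadjusted p below 0.05. Levels of single channels were scaled between arrays (Aquantile). The median SD between the arrays was 0.0481, and precision is limited by having 2 arrays. The steps were tested on simulated data.

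The genes, lists and tests were chosen with earlier results of these data known. The text names the 8 genes, *Eef1e1*, list genes past 1.5-fold and the extremes of each pathway list, and other genes were named after their values were seen. As alternatives, background was not subtracted, the scanner's log ratio was used, arrays were median centred, and the filter on dim probes was dropped or tightened. Values named as processed signals, or signals as processed by the scanner, are that log ratio. Probes were also averaged or kept apart, and there were runs with the value table, a trended and robust prior, a 2-fold threshold and each replicate left out. All sample columns were used (0 left out). R 4.3.3, limma 3.58.1, jsonlite 2.0.0 and Python 3.11.15 were used.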

Additional observations from a re-analysis of the deposited data

How the results depend on the processing

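In the alternatives with a test, 53 of 64 values of the 8 genes kept their direction and side of the threshold. Of the others, 9 no longer passed the test (2 of these with a changed sign) and 2 newly passed it with a changed sign. Dropping or tightening the filter and the trended prior left all 8 log2 ratios as they were, so direction could not change there. Averaging probes altered only the ratio of *Atm*. Of the 16 values of single arrays, which have no test, 15 kept their sign. Median centring in place of loess gave 2888 changed genes, 97.7% of them higher in place of 87.5%, with 3 of the 8 genes lower and 2 higher (*Atrip* and *Topbp1*) and a median of -0.019. It turned *Atr* to 0.039 (adjusted p = 0.639), *Atrip* to 0.17 (0.0309), *Topbp1* to 0.19 (0.0148) and *Clspn* to 0.0061 (0.944), on a scale where the median of all genes was 0.18. The processed signals gave 2720 changed genes (71.5% higher), 1 of the 8 genes past 1.5-fold and a median of -0.28, and the value table gave 2747, 1 and -0.24. That gene was *Chek2* in both. A 2-fold threshold left 298 changed genes. The genes that no longer passed were *Chek1* without background subtraction (adjusted p = 0.542), with processed signals (0.191), without the filter (0.104), in the value table (0.246) and with the trended prior (0.117), *Atm*, *Atr* and *Clspn* with median centring, and *Clspn* without the filter (0.0769). With median centring and with the trended prior limma estimated an infinite prior degree of freedom, that is no spread of a gene's own, so p-values and counts in both rest on a variance shared between genes. Tested as a single probe over all probes, *Chek1* had an adjusted p of 0.0529. The median of the 8 genes ranged from -0.22 without replicate 1 to -0.19 without replicate 2, and *Topbp1* ranged from -0.14 without replicate 1 to 0.024 without replicate 2. Apart from these, the causes of the changes were not tested. Of the list medians, 82 alternatives stayed within the spread between arrays and 38 did not. With median centring none of these list medians stayed within it, and the trended prior could not change any. Runs without a replicate are judged against a spread that the same arrays define. No paired analysis was possible because the control is 1 pool on both arrays and only 1 group has replicates. The *Chek1* spots stood 67.0 to 90.0 intensity units above their local background.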

Other observations

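Genes next to the 8 genes on the chromosome were looked up in the RefSeq table after their values were seen. *Mcm4*, a subunit of the replicative helicase and the neighbour of *Prkdc*, had log2 ratios of -0.34 and -0.39 (mean -0.36; adjusted p = 0.001 by limma), and was at -0.0043 with median centring, where the median of all genes was 0.18. *Mzt2*, on the other side of *Prkdc*, was at -0.065 (adjusted p = 0.271). The neighbours of *Chek2*, the gene with the lowest ratio, were at 0.87 for *Ttc28* (past 1.5-fold) and at 0.15 for *Hscb* (adjusted p = 0.0389). *Cdv3*, beside *Topbp1*, was at 0.15 (adjusted p = 0.0272). *Xrn1* beside *Atr* (-0.035), *Stt3a* beside *Chek1* (-0.084) and *Trex1* and *Tma7* beside *Atrip* (0.078 and 0.14), *1300017J02Rik* beside *Topbp1* (0.039) and *Ago4* and *5730409E04Rik* beside *Clspn* (-0.13 and -0.14) did not pass the test. *Npat*, whose start lies 376 bases from that of *Atm* on the opposite strand, was not tested.

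Of the 8 genes, 5 (*Atm*, *Atr*, *Chek1*, *Atrip* and *Topbp1*) lie on chromosome 9. The median log2 ratio of the 828 tested genes of that chromosome was 0.038, and the medians of all chromosomes with tested genes ran from -0.0014 to 0.054.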
